A study of Mus musculus with 2 samples.

Results

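The genes that process ribosomal RNA and assemble ribosomal subunits were followed in PGK12.1, a female mouse embryonic stem cell line, on 2 arrays. The first array measured total RNA of cells differentiated for 15 days as embryoid bodies, aggregates in which stem cells form several cell types, and the other measured undifferentiated cells (day 0). Both conditions come from the same line, derived from a cross of a 129 female with a (129 X PGK)F1 male, at passages 14 to 18. The medium held leukemia inhibitory factor, fibroblast feeders were removed on gelatin before collection or differentiation, and the labels name no agent added for differentiation. Members were chosen by gene symbol: the stems Utp, Rrp, Exosc, Nop and Nol followed by a number, without Nol4 and Nol4l, and a further 21 named nucleolar genes. The rule found 65 measured members among 18193 measured genes, and Npm3, a named gene, had no probe set in the annotation used here.

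Ribosomes are built in the nucleolus, where RNA polymerase I copies ribosomal DNA into a long precursor. Small nucleolar ribonucleoproteins guide its methylation and pseudouridylation, the small subunit processome folds and cuts the part that becomes 18S rRNA, other factors assemble the large subunit, and the RNA exosome trims the spacers. Embryonic stem cells divide fast and are known for large nucleoli and high output of this pathway.

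Each value is a probe set signal in linear units that had been scaled to a common mean before deposit. A gene is represented by its single-gene probe set with the highest mean signal, so signals of different genes are not comparable with each other. The log2 difference of a gene is log2(signal + 16) at day 15 minus log2(signal + 16) in undifferentiated cells, and a gene was called when this reached 2-fold. A fold given below divides the brighter signal by the dimmer one. With 1 array per condition there was no replicate, hence no replicate error and no test, and every difference is described by its size. As a measure of the probes alone, log2 differences of probe sets of the same gene had an SD of 0.53 over 5157 genes with more than 1 probe set of at least median signal.

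The 2 arrays matched their labels in stem cell and differentiation markers. Of 14 pluripotency markers, 11 were at least 2-fold lower at day 15, with Pou5f1 at 2932 in day 15 cells and 7838 in undifferentiated cells and a summed signal of 33846 at day 15 against 70040 at day 0. Fibroblast and matrix markers, which feeders also express, exceeded 2-fold upward in 12 of 13 cases, with a summed signal of 61219 at day 15 against 5529 in undifferentiated cells. Col1a1, a defining marker of that list, read 7728 at day 15 and 17.2 in undifferentiated cells, where it lay under the highest bacterial control without target (35.6). Past 2-fold upward were also 5 of 9 visceral endoderm markers, 5 of 8 muscle markers and 3 of 5 leukocyte markers. Of the leukocyte markers, Laptm5 was lower, at 490.3 at day 15 against 949.2 at day 0. Ptprc lay under that control level on both arrays, and Tyrobp and C1qb lay under it at day 0. Neural markers went both ways, with 3 of 7 past 2-fold upward, 2 past 2-fold downward (Neurod1 and Tubb3) and a median of -0.68. Of 5 erythroid markers, 0 were past 2-fold upward and 1 (Gata1) was past 2-fold downward. Among all measured genes, 12.8% were past 2-fold upward and 7.56% past 2-fold downward. The part of this change in cell types in the results below was not tested. In these bulk samples fewer cells of a type and less RNA per cell cannot be told apart.

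Nearly the whole set was lower after 15 days of differentiation. Of 65 members, 62 had a log2 difference below 0, against 51.4% of all measured genes. At least 2-fold lower were 27 members (41.5%), against 7.56% of all measured genes, and 0 members were at least 2-fold higher, against 12.8% of all genes. The median log2 difference was -0.92 over the members and -0.02 over all genes. The quartiles of the members were -1.17 and -0.65, and those of all genes -0.47 and 0.50. Members also varied less among themselves, with an SD over genes of 0.47 among members and 0.99 among all genes. This was not particular to the members. The SD was 0.39 among other genes of ribosome production and 0.37 among replication and proliferation genes. It was 0.42 among mitochondrial and 0.20 among cytosolic ribosomal protein genes.

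**Figure D1:**
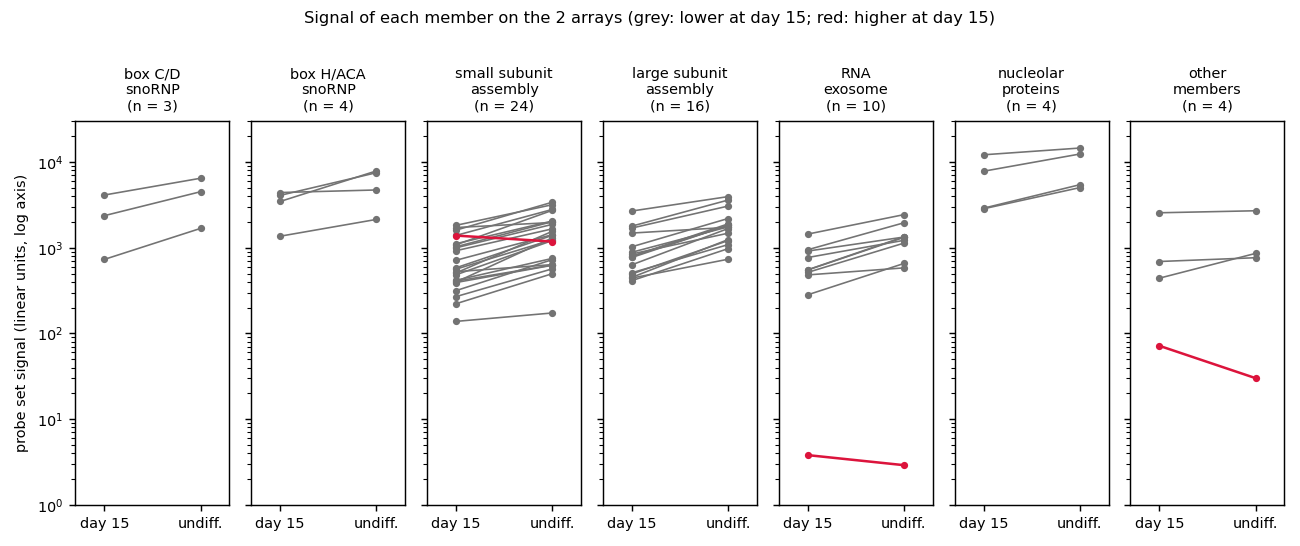
Signal of each member at day 15 (left) and in undifferentiated cells (right), on a log axis, in 7 panels by role. Each line joins the 2 values of 1 gene. The 62 grey lines are lower at day 15, and the 3 red lines, higher at day 15, are Utp11 (small subunit assembly), Exosc6 (RNA exosome) and Nol3 (other members).

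Most members were bright, so they were also set beside other bright genes. Of the members, 64 had a mean no lower than the median probe set and 62 one no lower than the 75th percentile, a signal of about 215. Among 6995 genes at or above the 75th percentile, 9.79% were at least 2-fold lower, 13.0% at least 2-fold higher and 56.0% below 0, with a median of -0.12. The 62 members in that range had 27 at least 2-fold lower, 61 below 0 and a median of -0.95. The exception below 0 was Utp11, and the members under that signal were Exosc6, Nol3 and Utp14b.

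Promoter windows of the members are shown because the set moved together, and because the E-box CACGTG is a known binding sequence of MYC proteins, which drive genes of ribosome production. RefSeq windows of assembly GRCm38.p6, with 250 bases before and 50 after each annotated start, were held for 52 of the 65 members. The letters CACGTG (E-box), CCGGAAG (ETS), GCATGCGC (NRF1) and AAGATGG (YY1) were searched on both strands, and matches of different motifs overlapped in 0 member windows. The E-box was found in 15 of 62 member windows (24.2%), against 7.15% of all 32851 windows, and the ETS letters in 20 (32.3%), against 8.86%. The NRF1 letters were in 3 member windows (4.84%, against 2.71%) and the YY1 letters in 3 (4.84%, against 6.34%). Counted by gene, 13 of 52 members (25%) held the E-box, against 10.2% of 14452 measured genes with a window. The ETS letters were held by 18 members (34.6%), against 15.0% of those genes. Motif shares among bright genes alone were not computed, although most members are bright.

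Within the set, the E-box was present in 3 of 23 members at least 2-fold lower and in 10 of the 29 others, and the median log2 difference was -0.91 in members with it and -1.004 in members without it. The ETS letters were present in 8 of those 23 and in 10 of those 29. An E-box lay within the 250 bases before a start in 7 members. The windows below give those bases for 4 of them, the ones with the largest losses, and for Utp15, the member with the largest loss, where none of the 4 motifs was found. Matches of the 4 motifs are in capitals, and each line runs 5′ to 3′ on the strand of the gene.
Nop2: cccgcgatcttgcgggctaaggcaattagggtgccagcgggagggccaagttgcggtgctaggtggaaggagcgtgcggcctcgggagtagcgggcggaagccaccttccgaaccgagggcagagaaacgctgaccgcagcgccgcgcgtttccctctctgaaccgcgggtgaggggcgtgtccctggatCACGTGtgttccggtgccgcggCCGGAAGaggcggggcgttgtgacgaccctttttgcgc
Exosc5: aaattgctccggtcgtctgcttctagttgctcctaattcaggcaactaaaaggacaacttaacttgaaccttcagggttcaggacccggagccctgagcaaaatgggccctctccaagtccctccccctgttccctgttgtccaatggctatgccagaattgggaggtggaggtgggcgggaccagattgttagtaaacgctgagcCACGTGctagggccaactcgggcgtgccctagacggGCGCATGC
Nol11: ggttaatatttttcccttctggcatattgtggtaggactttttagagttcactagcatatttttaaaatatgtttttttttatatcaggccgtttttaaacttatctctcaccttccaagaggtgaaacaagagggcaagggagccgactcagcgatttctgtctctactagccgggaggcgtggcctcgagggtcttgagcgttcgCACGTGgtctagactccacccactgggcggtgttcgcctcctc
Utp18: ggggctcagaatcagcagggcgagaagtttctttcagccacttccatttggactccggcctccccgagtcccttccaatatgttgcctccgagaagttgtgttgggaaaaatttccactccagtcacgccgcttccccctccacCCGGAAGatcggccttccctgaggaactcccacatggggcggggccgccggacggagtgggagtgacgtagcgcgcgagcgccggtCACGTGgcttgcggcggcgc
Utp15: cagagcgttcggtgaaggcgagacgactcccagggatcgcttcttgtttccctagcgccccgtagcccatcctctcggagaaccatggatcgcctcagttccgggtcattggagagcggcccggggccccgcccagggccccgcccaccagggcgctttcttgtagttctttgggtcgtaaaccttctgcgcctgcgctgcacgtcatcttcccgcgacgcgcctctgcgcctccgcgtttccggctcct

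Nop2 (chr6:125131633-125131882, plus strand) had its E-box 60 bases and its ETS match 38 bases before the start. Exosc5 (chr7:25658903-25659152, plus strand) had an E-box 44 bases before the start and an NRF1 match 8 bases before it. Nol11 (chr11:107189382-107189631, minus strand) had an E-box 43 bases before the start. In Utp18 (chr11:93885767-93886016, minus strand) the E-box lay 20 bases and the ETS match 106 bases before it. The window of Utp15 is chr13:98262993-98263242, minus strand. These 4 members had log2 differences between -1.26 (Exosc5) and -0.96 (Utp18), and Utp15 had -1.67. The other 3 with an E-box before the start were lower by less, Rrp7a at -0.65, Utp25 at -0.61 and Utp14b at -0.30. A match is a description of the letters only.

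The snoRNP cores were lower in all 7 members, by unequal amounts. Box C/D particles guide 2′-O-methylation of rRNA, and Nop58, which together with Nop56 forms their scaffold, read 732.8 at day 15 and 1686 in undifferentiated cells (2.30-fold lower, log2 difference -1.18). Its partner Nop56 read 2374.6 at day 15 against 4520.6 at day 0 (-0.92), and a further probe set of Nop56 gave -1.28. Fbl, the methyltransferase of the particle, read 4135.8 at day 15 and 6494.4 in undifferentiated cells (1.57-fold lower), and both its probe sets gave nearly the same difference (-0.65 and -0.66). Thus 1 of the 3 box C/D members passed 2-fold. The smallest of the 3 losses was that of Fbl, but on the selected probe sets Fbl and Nop56 differed by less than the SD between probe sets.

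Box H/ACA particles guide pseudouridylation, and their core proteins also bind telomerase RNA. Nhp2 read 3479.1 at day 15 against 7909.7 in undifferentiated cells (2.27-fold lower, log2 difference -1.18), Nop10 read 4099.2 at day 15 against 7538.5 at day 0 (-0.88) and Gar1 read 1367.1 at day 15 against 2146.6 at day 0 (-0.64). The pseudouridine synthase Dkc1, an X-linked gene, stood apart at 4423.4 at day 15 against 4738.7 at day 0, a log2 difference of -0.10. That value rests on the probe set the rule selects, whose suffix marks probes that can match several transcripts. The other Dkc1 probe sets gave -0.82 (3201.6 at day 15, 5673 in undifferentiated cells) and -0.95 (1115.4 at day 15, 2166.7 at day 0), close to the other core proteins. The Dkc1 value from the selected probe set turned to 0.06 under quantile normalization of the arrays.

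Small subunit assembly held the 2 members with the largest losses. Of 24 members, 10 were at least 2-fold lower, 23 were below 0 and the median was -0.97. Utp15, a subunit of the UTP-A complex that binds the nascent precursor, read 398.9 at day 15 against 1304.6 in undifferentiated cells (3.27-fold lower, -1.67), but its other probe set read 403.9 at day 15 against 458.7 at day 0 (-0.18). The 2 probe sets of Utp15 differed by more than the SD between probe sets, so its place as the largest loss depends on the probe. Noc4l, in yeast the partner of Nop14 in 40S assembly, read 509.6 at day 15 against 1556.1 at day 0 (3.05-fold lower, -1.58), and its 4 probe sets lay between -1.58 and -1.17. Nop14 itself read 584.9 at day 15 against 1396.4 at day 0 (2.39-fold lower, -1.23).

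The other members of this role past 2-fold spanned several steps of 18S rRNA maturation. Utp14a, an X-linked gene of the processome, read 1084.1 at day 15 against 2738.7 in undifferentiated cells (2.53-fold lower, -1.32), and Rrp9, a protein of the U3 snoRNP, 484.1 at day 15 against 1215.6 at day 0 (2.51-fold lower, -1.30). Rrp12, in yeast needed for export of both subunits, read 316.6 at day 15 against 727.4 at day 0 (-1.16). Nop9 read 563.6 at day 15 against 1243.3 at day 0 (-1.12) and Nol6, the relative of yeast Utp22, 222.6 at day 15 against 498.7 at day 0 (-1.11). These genes were all between 2.21-fold and 2.53-fold lower. Utp4, in the same UTP-A complex as Utp15, read 1609.6 at day 15 against 3407 at day 0 (-1.07), and Nol10 read 269.6 at day 15 against 568 at day 0 (-1.03).

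Several processome members lay just short of the 2-fold line. Nol11, a UTP-A partner found in animals, read 1396.7 at day 15 and 2804.2 in undifferentiated cells, a ratio of 2.01 whose log2 difference with the added 16 was just short of the call. Utp6 read 716 at day 15 against 1423.4 at day 0 (-0.98), Utp18 1029.8 at day 15 against 2019.7 at day 0 (-0.96), and Utp20 1001.1 at day 15 against 1878 at day 0 (-0.90). Their neighbours in that order did not differ beyond the spread between probe sets of a gene. Utp3 was at -0.87, the 40S maturation factor Bysl at -0.84, Utp23 at -0.82, the GTPase-like factor Tsr1 at -0.79, Rrp7a at -0.65 and Utp25 at -0.61. Utp23 had 3 probe sets below 0 and 1 at 0.03.

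At the other end of this role, 3 members differed by less than the SD between probe sets and 1 was higher. Ltv1, in yeast a factor of late 40S maturation, read 1725.9 at day 15 against 1976.3 in undifferentiated cells (-0.19), Rrp36 read 526.4 at day 15 against 637 at day 0 (-0.27), and Utp14b, the autosomal retrogene copy of Utp14a, read 138.4 at day 15 against 173.5 at day 0 (-0.30). Utp11, named here after its values were seen, read 1390.2 at day 15 against 1184.9 at day 0 (0.23). A further Utp11 probe set read 659.2 at day 15 against 245.3 at day 0 (1.37), so both of its probe sets of at least median signal were higher at day 15. Scaling on hybridization controls, described below, left Nol3 as the sole member above 0, so Utp11 was below 0 with it.

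**Figure D2:**
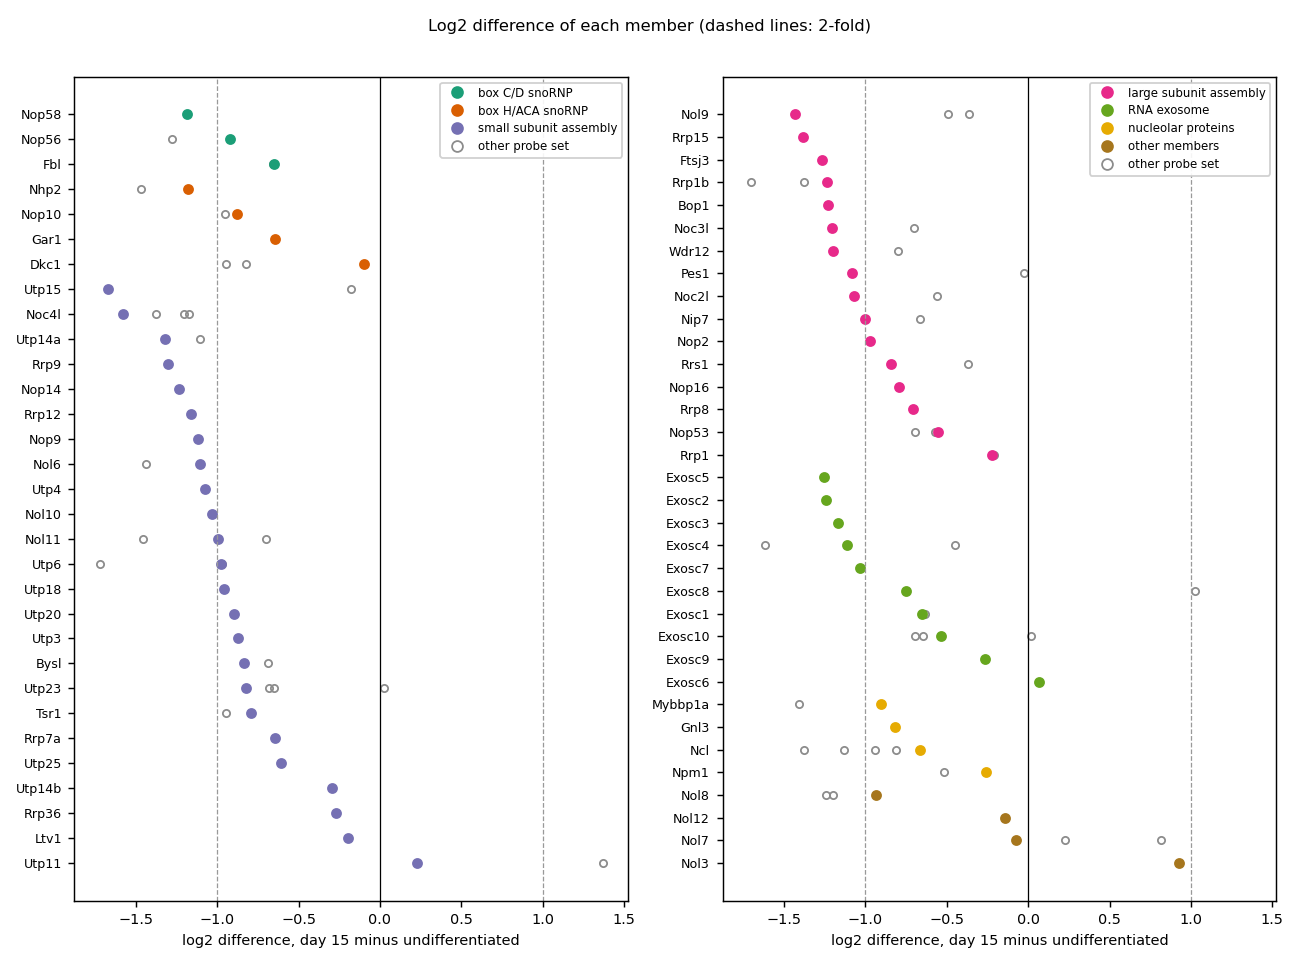
Log2 difference, day 15 minus undifferentiated, of each of the 65 members (filled points, coloured by role, ordered within each role) with the other probe sets of the same gene that had at least median signal (open circles). Most filled points lie between -1.5 and -0.5, and the open circles of Utp15, Dkc1, Pes1, Nol9 and Exosc8 lie far from their filled points.

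Large subunit assembly had the highest share past 2-fold of the 7 roles on brightest probe sets (62.5%). Of 16 members, 10 were at least 2-fold lower, 16 were below 0 and the median was -1.08. With the mean over all probe sets of a gene, 7 of these 10 (Bop1, Pes1, Wdr12, Noc2l, Noc3l, Nip7 and Nol9) fell short of 2-fold and the role had 3 past it. Bop1, Pes1 and Wdr12 form the PeBoW complex, which acts on the 28S and 5.8S precursors, and their brightest probe sets differed by nearly the same amount. Bop1 read 771.5 at day 15 against 1830.3 in undifferentiated cells (-1.23), Wdr12 read 789.6 at day 15 against 1831.5 at day 0 (-1.20) and Pes1 read 1029.1 at day 15 against 2199.6 at day 0 (-1.08). A dimmer probe set of Pes1 read 168.9 at day 15 against 172.4 at day 0 (-0.03), and a Bop1 probe set under the median signal read 41.6 at day 15 against 10.8 at day 0 (1.10).

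Enzymes and scaffold proteins of the large subunit followed. Nol9, a polynucleotide kinase that acts on the internal spacer between 5.8S and 28S rRNA, read 451.9 at day 15 against 1247.8 in undifferentiated cells (2.76-fold lower, -1.43), while its dimmer probe sets gave -0.36 and -0.49. Rrp15 read 633.6 at day 15 against 1678.8 at day 0 (2.65-fold lower, -1.38), and Ftsj3, a relative of the yeast rRNA methyltransferase Spb1, 495.4 at day 15 against 1213.9 at day 0 (2.45-fold lower, -1.27). All 3 losses exceeded those of the PeBoW genes by less than the SD between probe sets. Noc3l read 414.2 at day 15 against 977.6 at day 0 (-1.21), Noc2l 511.4 at day 15 against 1090 at day 0 (-1.07) and Nip7 1792.2 at day 15 against 3610.9 at day 0 (2.01-fold lower). On other probe sets Noc3l was at -0.70 and Noc2l at -0.56, short of 2-fold, while all 4 probe sets of Noc4l were past it.

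A pair of related large subunit genes differed. Rrp1b read 798.8 at day 15 against 1903 in undifferentiated cells (-1.24), and its other probe sets gave -1.38 and -1.70. Its paralog Rrp1 read 1487.4 at day 15 against 1734.9 at day 0 (-0.22), and its other probe set gave -0.21. The probe sets of these 2 genes thus did not overlap in their differences. Nop2, the methyltransferase that makes 5-methylcytosine in 28S rRNA, read 887.8 at day 15 against 1756.7 at day 0 (-0.97). Among the other members within 2-fold, Rrs1 was at -0.85, Nop16 at -0.79, the methyltransferase-like Rrp8 at -0.71 and Nop53, which in yeast brings the exosome helicase to the precursor, at -0.56.

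The RNA exosome was lower in 9 of 10 members, of which 5 were past 2-fold (median -0.89). The particle has a cap of Exosc1, Exosc2 and Exosc3, a ring of Exosc4 to Exosc9 and the nuclear nuclease Exosc10. Exosc5 read 553.9 at day 15 against 1345.2 in undifferentiated cells (2.43-fold lower, -1.26), Exosc2 551 at day 15 against 1323.5 at day 0 (-1.24) and Exosc3 282.8 at day 15 against 656.3 at day 0 (-1.17). Exosc4 read 516.6 at day 15 against 1134.6 at day 0 (-1.11), with probe sets between -1.62 and -0.45, and Exosc7 read 949.5 at day 15 against 1960.3 at day 0 (-1.03). Cap and ring proteins were both among those past 2-fold.

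The remaining exosome subunits varied more. Exosc8 read 1446.4 at day 15 against 2440.2 in undifferentiated cells (-0.75), while its other probe set, at 393.2 at day 15 against 185.2 at day 0, went the opposite way (1.02). Exosc10 read 916.3 at day 15 against 1336.6 at day 0 (-0.54), with 3 probe sets below 0 and 1 at 0.02. Exosc1 was at -0.66 and Exosc9 at -0.26 (483 at day 15 against 583.3 at day 0). Exosc6 read 3.8 at day 15 and 2.9 at day 0, both under the highest bacterial control without target, so its nominal 0.07 carries no direction.

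The abundant nucleolar proteins were lower too, and 0 of the 4 measured reached 2-fold on their brightest probe set. Mybbp1a, a MYB-binding protein of the nucleolus, read 2902.1 at day 15 against 5455.6 in undifferentiated cells (-0.91), but its other probe set read 1348.8 at day 15 against 3601.1 at day 0 (-1.41). It was past 2-fold with the mean over probe sets (-1.16) and with suffixes a, s or x left out (-1.41). Gnl3 (nucleostemin), a GTPase found in stem and dividing cells, read 2856 at day 15 against 5045.5 at day 0 (1.77-fold lower, -0.82). Ncl (nucleolin) read 7841.4 at day 15 against 12452.1 at day 0 (-0.67), and its other 4 probe sets gave larger losses, from -0.81 to -1.38. Npm1 (nucleophosmin) read 12200.2 at day 15 against 14623.7 at day 0 (-0.26), with -0.52 on its other probe set. The selected probe sets of Ncl and Npm1 exceeded 8340 in undifferentiated cells, the signal of the dimmest Cre spike-in control. Bright Cre controls had a mean log2 ratio of 0.27 between day 15 and undifferentiated cells, and dim BioB controls had 0.49, so ratios were not uniform over the signal range, and their part in the values of Ncl and Npm1 was not tested.

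The last 4 members were placed in none of the other roles. Nol8 read 442.2 at day 15 against 860.8 in undifferentiated cells (-0.94), and its other probe sets gave -1.20 and -1.24. Nol12 read 692.5 at day 15 against 766.5 at day 0 (-0.14). Nol7 read 2567.1 at day 15 against 2709.3 at day 0 (-0.08), had a further 2 probe sets above 0 (0.23 and 0.82), and turned to 0.09 under quantile normalization. Nol3 encodes an inhibitor of apoptosis with a caspase recruitment domain rather than a known assembly factor. It read 71.8 at day 15 and 30.1 in undifferentiated cells, at least 2.02-fold higher, with a log2 difference of 0.93 that the added 16 keeps short of a call. Leaving out Nol3 and Exosc6 gave 27 of 63 members at least 2-fold lower and a median of -0.94.

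The members had 134 single-gene probe sets, of which 116 had at least median signal. Of these 116, 108 were below 0, 44 were at least 2-fold lower and 2, those of Exosc8 and Utp11, were at least 2-fold higher. Of all 20264 single-gene probe sets with at least median signal, 49.5% were below 0, 7.66% were at least 2-fold lower and 3243 probe sets were at least 2-fold higher. Among 34 members with more than 1 such probe set, 29 had all of them below 0, Utp11 had all above 0, and Utp23, Exosc8, Exosc10 and Nol7 had both directions. The second brightest probe set of the 42 members with more than 1 gave a smaller median (-0.65), with 10 at least 2-fold lower and 4 at least 2-fold higher (Rrp7a, Utp11, Bop1 and Exosc8). On those probes 10 of 42 members (23.8%) were at least 2-fold lower, against 6.30% of all genes on their own second brightest probe sets. The 4 members at least 2-fold higher stand beside 12.7% of all genes on such probe sets.

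Other genes of ribosome production were lower too. Of 105 measured genes in 5 lists, 37 (35.2%) were at least 2-fold lower, against 7.56% of all genes. At least 2-fold higher were 0, against 12.8% of all genes, and 104 were below 0, with a median of -0.86. RNA polymerase I genes and their cofactors had 6 of 14 at least 2-fold lower (median -0.67). Nolc1, the snoRNP chaperone of the nucleolus, read 1203.1 at day 15 against 4222.2 in undifferentiated cells (-1.80), Polr1b, a large subunit of RNA polymerase I, 521.8 at day 15 against 1559.8 at day 0 (-1.55), and Tcof1 (treacle) 720.2 at day 15 against 1817.5 at day 0 (-1.32). Other small subunit factors had 10 of 33 (median -0.86, with Imp4 at -1.40 and Heatr1 at -1.39), and other large subunit factors 18 of 40 (median -0.96, with Nle1 at -1.68 and Dnajc21 at -1.66). The snoRNP assembly factors had 2 of 9 (median -0.86), the AAA ATPase Ruvbl1 at -1.35 and Pih1d1 alone above 0 at 0.25. RNase MRP and P proteins had 1 of 9 (median -0.54), namely Pop1 at -1.42.

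**Figure D3:**
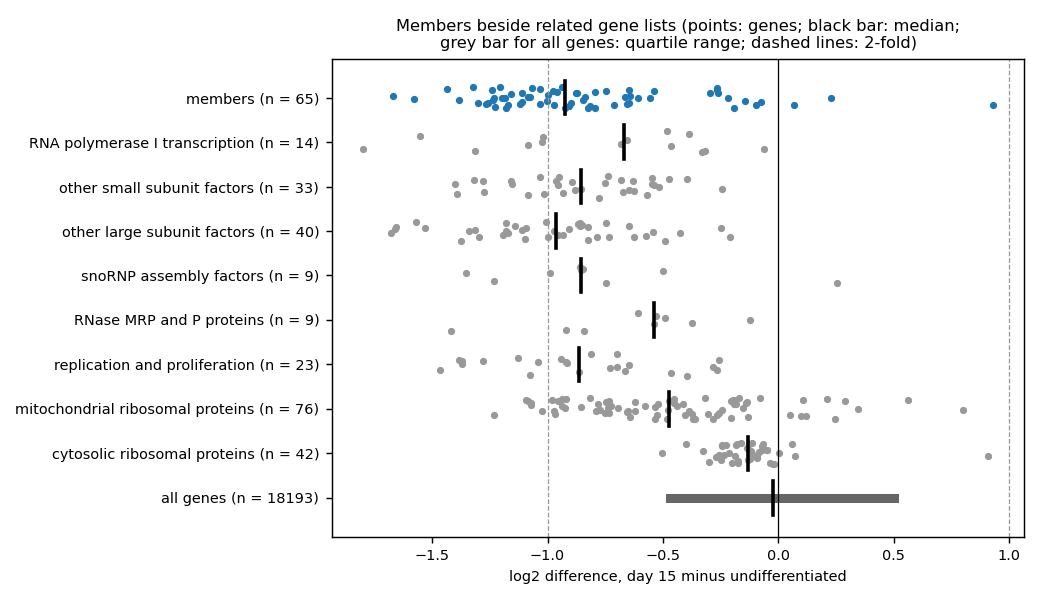
Log2 difference, day 15 minus undifferentiated, of the members (blue points) beside related gene lists (grey points, 1 per gene), with medians as black bars. The bottom row gives the median and the quartile range of all 18193 genes. Members and other assembly lists centre between -0.97 and -0.54, and cytosolic ribosomal proteins centre at -0.13.

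Genes for the proteins of the ribosome itself were lower by less. Of 42 cytosolic ribosomal protein genes, 0 reached 2-fold in either direction and the median was -0.13, and 38 were below 0 (23 under quantile normalization). Most of these genes are bright, in the range where the control ratios above were lower. The part of signal range in their values was not tested. Of 76 mitochondrial ribosomal protein genes, 6 (7.89%) were at least 2-fold lower, close to the 7.56% of all genes. Below 0 were 66 of them, with a median of -0.47. Replication and proliferation genes had 8 of 23 (34.8%) at least 2-fold lower, 23 below 0 and a median of -0.86, close to the members' median. Mcm2, a subunit of the replicative helicase, read 1451.9 at day 15 against 4038.5 in undifferentiated cells (-1.47). The part of cell division in the members' loss was not tested, and no difference between these lists was tested.

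Genes of the MYC network moved in both directions. Mycn read 1250.6 at day 15 against 4424.6 in undifferentiated cells (3.54-fold lower, -1.81), whereas Myc read 611.9 at day 15 against 702.2 at day 0 (-0.19). Their common partner Max read 342.8 at day 15 against 808.9 at day 0 (-1.20), and Mycl read 29.8 at day 15 against 111.8 at day 0 (at least 3.14-fold lower, -1.48). Among the antagonists that compete for Max, Mxd4 read 305.8 at day 15 against 37.4 at day 0 (8.18-fold higher, 2.59), Mxd1 69.5 at day 15 against 45.7 at day 0 (0.47), Mxd3 124.7 at day 15 against 96.6 at day 0 (0.32), Mxi1 367.5 at day 15 against 389.1 at day 0 (-0.08) and Mnt 322.3 at day 15 against 474.7 at day 0 (-0.54). The Mxd4 signal at day 0 lay just above the highest bacterial control without target (35.6), and only the brightest of its 4 probe sets is given. So 3 of these 9 genes were at least 2-fold lower, against 7.56% of all genes. At least 2-fold higher was 1 gene, Mxd4, against 12.8% of all genes.

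The size of the loss depended on the scaling of the arrays, and the sign of the median did not. Scaling on the 18 bacterial hybridization controls, whose mean log2 ratio was 0.39, moved the median of all genes to -0.27 and that of the members to -1.31, with 50 of 65 members at least 2-fold lower against 15.2% of all genes. Quantile normalization gave -0.09 for all genes and -0.84 for the members, with 25 members at least 2-fold lower against 9.76% of all genes. Relative to the median gene, the member median was -0.90 as deposited, -1.04 with the hybridization controls and -0.75 with quantile normalization.

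**Figure D4:**
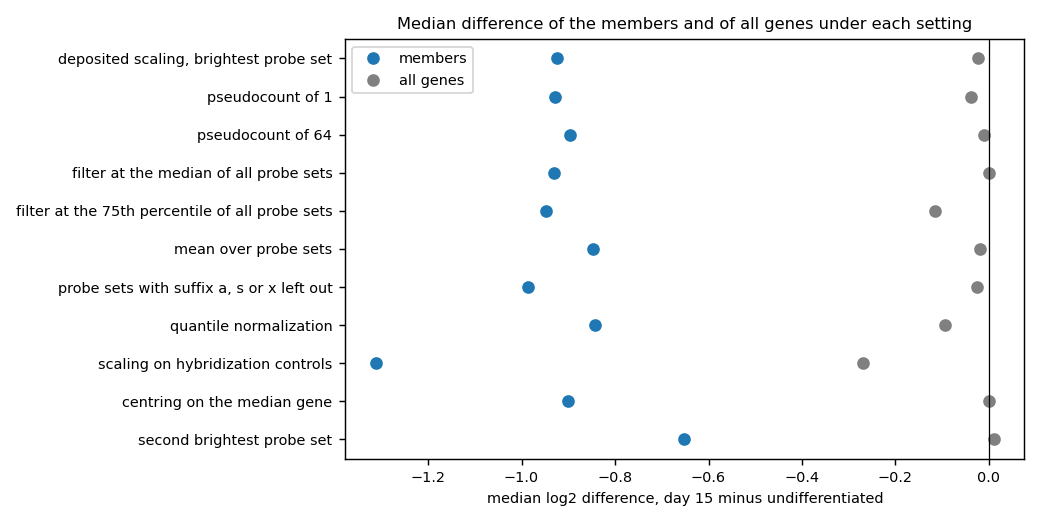
Median log2 difference, day 15 minus undifferentiated, of the members (blue) and of all genes (grey) as deposited and under 10 other settings. The member medians lie between -1.31 and -0.65, and the medians of all genes between -0.27 and 0.01.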

How the data were processed

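The authors deposited a linear signal intensity for each probe set on each of 2 arrays. Biotinylated cRNA was made from total RNA by the Affymetrix protocol, per the labels' protocols. The software behind the signals is not given in the sources used here. Trimming 2% of probe sets at either end left a mean of 250 on each array, so the deposited intensities had been scaled. Of 45101 probe sets, 64 were controls, 34945 named 1 gene in the platform annotation, 932 named several and 9160 were not listed. Symbols were updated through RefSeq GRCm38.p6. No genome build comes with the arrays, so coordinates are those of RefSeq promoters. The named genes were all members at least 2-fold changed, the 3 largest and the smallest difference of each role, Fbl, Ncl, Npm1, X-linked members and those whose probe sets pointed both ways. Other members, and the probe sets discussed, were named after their values were seen. Members and lists were chosen with earlier results of these data known. Folds are at least the brighter signal over 35.6 where the dimmer lay under that control level. The arithmetic of differences and calls, not their error, was tested on simulated data. Alternatives covered pseudocount, filters, probe set choice and scaling. The number of arrays limits precision. Python 3.11.15, NumPy 2.4.6 and pandas 2.3.3 were used.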

Additional observations from a re-analysis of the deposited data

Results flagged for a closer look

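Probes for 18S ribosomal RNA, control probe sets outside the gene comparison, gave signal above the bacterial controls without target at day 15. The 3′ probe set read 111.5 at day 15 and 88.5 in undifferentiated cells, the 5′ probe set 47.3 at day 15 and 32.4 in undifferentiated cells, and the middle probe set 56.5 at day 15 and 55.2 in undifferentiated cells. Their log2 differences were 0.29, 0.39 and 0.03, none above the mean log2 ratio of the hybridization controls (0.39). The 5′ difference rests on an undifferentiated signal under the highest bacterial control without target (35.6). Standard labelling starts from poly(A) tails, which mature rRNA lacks.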

How the results depend on the processing

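The member median kept its sign under 9 alternative settings and under both added after the data were seen. It moved most with scaling on the hybridization controls (-1.31, with 50 members at least 2-fold lower) and with the second brightest probe set, one of the added settings (-0.65, with 10 lower and 4 higher of 42). At least 2-fold higher were 1 member with a pseudocount of 1 (Nol3) and 1 with suffixes a, s or x left out (Utp11), which left 58 members. The other settings gave 23 to 28 members at least 2-fold lower. The share of all genes at least 2-fold lower varied more widely. It ran from 3.74% with a pseudocount of 64 (23 members) to 14.6% with a pseudocount of 1 (28 members). Of 406 values of the 46 named members under the 9 alternative settings, 398 stayed within the SD between probe sets (0.53) and 0 of the called ones changed sign. The other 8 moved as dimmer probe sets entered or took over: with the mean over probe sets Bop1 was at -0.06, Nol9 at -0.50, Pes1 at -0.56, Utp15 at -0.92 and Exosc8 at 0.14, and with suffixes left out Dkc1 was at -0.82, Exosc10 at 0.02 and Utp23 at 0.03. Several of the 9 settings could hardly move a value. The filters leave it unchanged, and the shifts by centring and by the hybridization controls (0.39) were smaller than 0.53. The second brightest probe set is not among the 406 values. On it Bop1 changed sign, to 1.10, and Utp15 was at -0.18, Pes1 at -0.03 and Nol9 at -0.36. Calls ended for 8 members with the mean over probe sets, for 9 with the second brightest, for 4 with a pseudocount of 64 (Exosc7, Nip7, Nol10 and Nol6), for 3 with quantile normalization (Exosc7, Nip7 and Utp4) and for Nip7 with centring. Of all genes called, 62.9% were higher at day 15 as deposited, 53.0% with quantile normalization and 35.9% with the hybridization controls. No paired analysis was possible because each condition has 1 array.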

Other observations

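A probe set annotated to both Aars and Exosc6, and so left out of the gene values, read 705.4 at day 15 and 1032.4 in undifferentiated cells (log2 difference -0.54). The single-gene Exosc6 probe set was under the control level on both arrays. Spike-in controls differed between the arrays: the 6 lys probe sets read 5124 to 11560 at day 15 and 0.4 to 15.3 in undifferentiated cells, while the 6 dap probe sets read 0.4 to 18.1 at day 15 and 4158 to 15243 in undifferentiated cells.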
